A study of Canis lupus familiaris with 10 samples.

Results

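RNA of PRPF39 and 8 further genes was followed in 2 dog lines labelled as B-cell lymphoma. Cells were treated or not with an inhibitor of the arginine methyltransferase PRMT5. The proteins of these genes belong to the U1 small nuclear ribonucleoprotein (U1 snRNP) or act with it. The 9 genes were PRPF39, the 3 core U1 proteins SNRNP70, SNRPA and SNRPC, the LUC7-like family LUC7L, LUC7L2 and LUC7L3, and the paired RNA-binding proteins TIA1 and TIAL1. A gene was measured by the probe set whose platform annotation held its symbol and no other. All 9 had exactly 1 such probe set, out of 16545 single-symbol probe sets for 15947 symbols and 32391 probe sets in all. PRPF39 was chosen from its response in CLBL-1, so its values there are given as a description with no test. The other 8 were chosen by their function in or with the U1 particle, with earlier results of these arrays known.

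The inhibitor, selective for PRMT5 and named PR220 in the labels and C220 in the study, was given at 100 nM to treated cells and at 0 nM to control cells. Day 2 was the collection day of CLBL-1 and day 4 that of 17-71, so line and day cannot be told apart. The groups held 2 treated and 3 control CLBL-1 arrays, and 3 treated and 2 control 17-71 arrays, with 1 array per sample. Both are established dog lines that the labels trace to lymph node, each a single line grown in culture, and the study names DMSO as the solvent of the compound. Values are log2 expression after robust multi-array averaging (RMA), a method that evens out the distributions of the arrays and combines the probes of a set. The study calls the array experiments biological triplicates, while treated CLBL-1 and control 17-71 hold 2 arrays each. The labels do not mention separate cultures, and p-values cover the spread among these arrays.

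The U1 snRNP recognises the start of an intron by base pairing of its RNA with the splice donor site, the first step in building a spliceosome. SNRNP70, SNRPA and SNRPC sit on the core of the particle, whereas PRPF39, the LUC7-like proteins and TIA1 are auxiliary factors that help the particle settle on weak donor sites. PRMT5 places symmetric dimethyl marks on arginines of several Sm proteins, the ring shared by U1 and the other spliceosomal particles, which links the enzyme to the same machinery.

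Medians of the 10 arrays ranged from 3.71 to 3.79. RMA evens out array distributions, so close medians cannot show that levels compare between the lines. Whether both lines were normalised together was not given, and levels are set side by side with that limit. The labelled cell type was checked against 7 measured B cell markers (MS4A1, CD79A, CD79B, PAX5, BLK, EBF1 and CD22). Their median per array lay between 8.49 and 8.53 in treated CLBL-1 and between 8.67 and 8.97 in control CLBL-1. It lay between 3.35 and 4.05 in treated 17-71 and between 3.65 and 3.80 in control 17-71, near the array medians. The B cell surface gene MS4A1 read 2.02 to 2.53 on the 17-71 arrays, while CD22 read 7.35 or more on all 10 arrays, so the markers of the label were largely absent from 17-71. Over all arrays, the myeloid gene LYZ read 10.7 to 11.2, and stromal and epithelial markers read 4.56 at most. CD68, a macrophage gene, read at most 4.35 in CLBL-1 and 9.56 to 9.69 in 17-71, while the 3 other myeloid markers CD14, CSF1R and ITGAM read 3.62 at most on all arrays. Of 6 T cell markers, CD3G (8.79 to 9.05) and CD3D (6.71 to 7.35) were high in CLBL-1 and read at most 4.84 and 2.95 in 17-71. CD2 ran the other way, at 4.72 to 5.09 in CLBL-1 and 8.12 to 8.42 in 17-71, and CD3E, LCK and CD8A read 3.89 at most in both lines. Several of these markers moved with line, and their part in the line differences below was not tested.

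PRPF39 was higher in treated CLBL-1 than in any other group, and its change in that line was the largest of the 9 genes. Its relative in budding yeast, Prp39, helps to link the auxiliary proteins to the core of the U1 particle. It read 7.73 and 7.46 in treated CLBL-1, against 6.01, 6.12 and 6.04 in control CLBL-1. Both treated arrays lay above all 3 controls, a gap that was to be found in a gene chosen on this contrast. The treated mean was 7.60 ± 0.19 (SD, n = 2) and the control mean 6.06 ± 0.055 (SD, n = 3), a log2 difference of 1.54 or 2.90-fold. Of 15947 symbols, this was the change with rank 2 from the top, and 6 symbols changed by more in size. Because the arrays hold RNA of whole cultures, more cells of a type and more PRPF39 RNA per cell cannot be told apart.

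In 17-71, whose arrays took no part in choosing the gene, PRPF39 read 5.87, 5.87 and 5.58 in treated cells, against 6.01 and 5.80 in control cells. The treated arrays overlapped the controls, and the lowest value of all 10 arrays was the treated array at 5.58. The log2 difference was -0.13 (SE 0.138, 95% interval -0.48 to 0.22), and it did not pass the test (limma, Benjamini-Hochberg adjusted p = 0.808). In that line 43.3% of symbols had a change larger in size than that of PRPF39. The log2 response was 1.67 larger in CLBL-1 than in 17-71, the largest such difference among the 15947 symbols, given here as a description because its CLBL-1 part chose the gene. The mean of both responses, the common effect, was 0.70 for PRPF39 and rests on the CLBL-1 arrays.

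**Figure D1:**
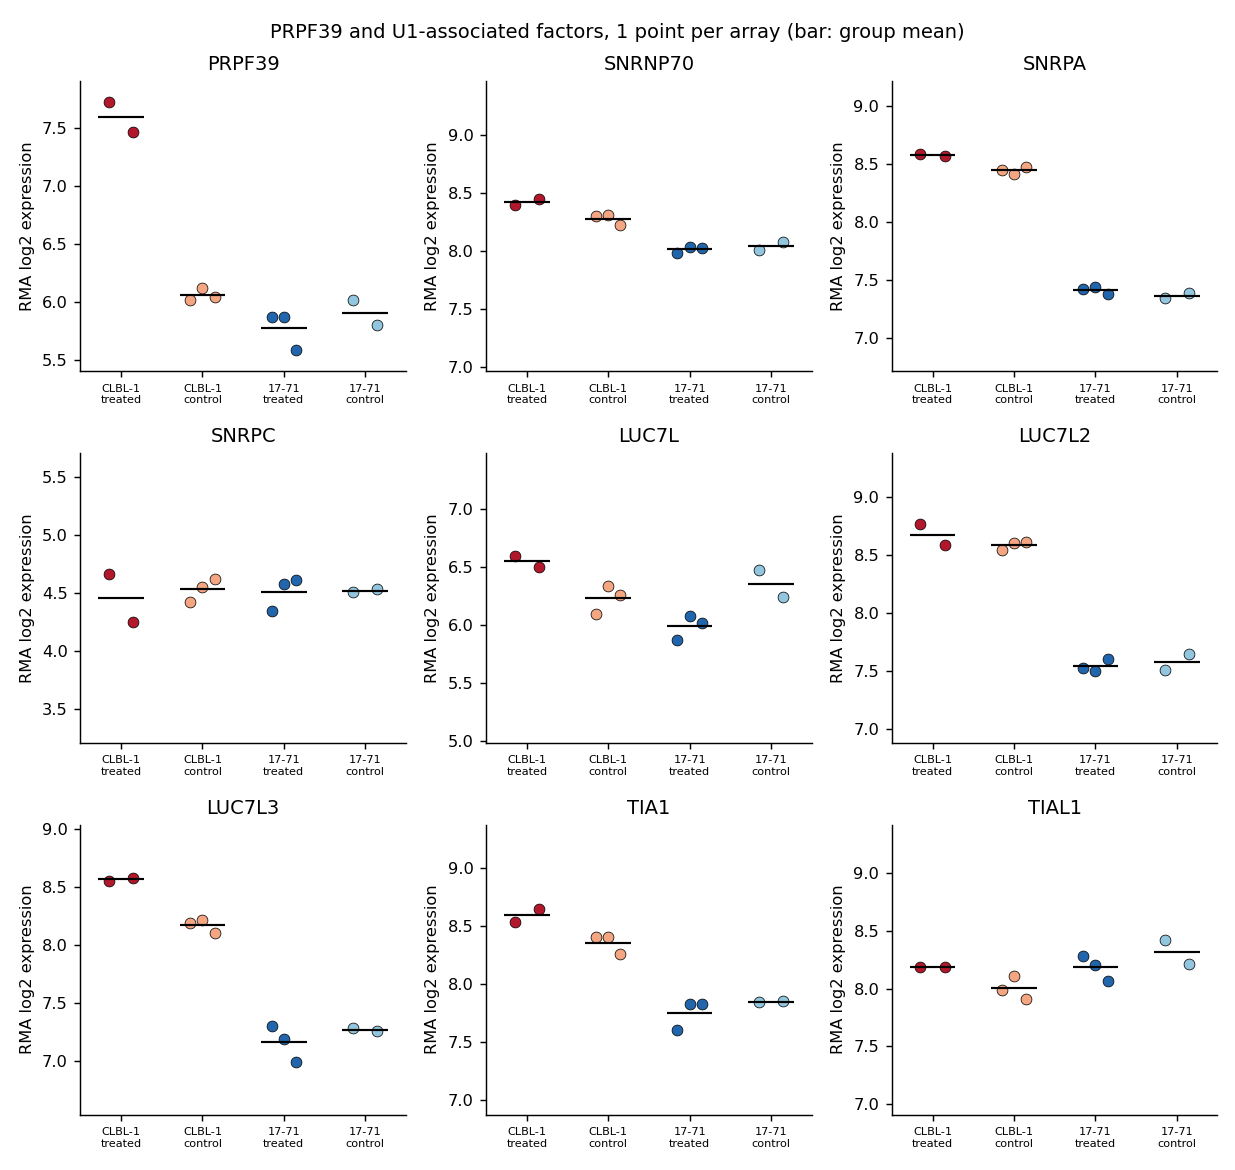
RMA log2 expression (vertical axis, an equal span of log2 units in every panel) of PRPF39 and the 8 other U1 factors, with 1 point per array and a bar at each group mean, for CLBL-1 treated (n = 2), CLBL-1 control (n = 3), 17-71 treated (n = 3) and 17-71 control (n = 2). PRPF39 reads 7.46 and 7.73 in treated CLBL-1 and at most 6.12 on every other array, while for SNRNP70, SNRPA, LUC7L2, LUC7L3 and TIA1 every CLBL-1 array lies above every 17-71 array.

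In control cells PRPF39 had means of 6.06 in CLBL-1 and 5.91 in 17-71 and a log2 difference of 0.15. Treated cells differed by 1.82 on the log2 scale, or 3.53-fold, with means of 7.60 ± 0.19 (SD, n = 2) in CLBL-1 and 5.77 ± 0.17 (SD, n = 3) in 17-71. The order of the 4 group means was therefore treated CLBL-1, control CLBL-1, control 17-71 and treated 17-71. The first step in that order is the contrast that chose the gene. The higher control 17-71 array lay below the lowest control CLBL-1 array by less than 0.01, and the other control 17-71 array read 5.80. The control arrays of 17-71 overlapped those of treated 17-71. The pooled SD within groups was 0.141 for PRPF39, close to the median of 0.136 over all symbols.

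The RNA of the core U1 proteins showed no response that passed the test in either line. SNRNP70 binds a stem-loop of the U1 RNA and contacts serine/arginine-rich splicing factors. It read 8.40 and 8.45 in treated CLBL-1, against 8.30, 8.31 and 8.22 in control CLBL-1. The treated arrays lay above the controls by a narrow margin, with a log2 difference of 0.15 (SE 0.0850, adjusted p = 0.515). Treated 17-71 cells read 7.98, 8.03 and 8.03, against 8.00 and 8.07 in control 17-71, and the groups overlapped (-0.028, adjusted p = 0.948).

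SNRPA binds another stem-loop of the U1 RNA and had the tightest replicates of the 9 genes, with a pooled SD of 0.028. It read 8.59 and 8.58 in treated CLBL-1, against 8.45, 8.42 and 8.48 in control CLBL-1. Treated 17-71 cells read 7.43, 7.45 and 7.38, against 7.35 and 7.39 in control 17-71. The groups did not overlap in CLBL-1 and did in 17-71, and the log2 differences were 0.14 (adjusted p = 0.526) and 0.052 (adjusted p = 0.890). SNRPC, whose zinc finger touches the paired donor site, ranged from 4.25 to 4.66 over all arrays, and its groups overlapped in both lines. These values lie not far above the array medians of 3.71 to 3.79, so its flat values carry less weight. Its log2 differences were -0.072 in CLBL-1 (95% interval -0.44 to 0.30) and -0.0089 in 17-71 (95% interval -0.30 to 0.29).

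The LUC7-like genes are relatives of the yeast U1 protein Luc7, which influences the choice between donor sites. LUC7L read 6.59 and 6.50 in treated CLBL-1, against 6.09, 6.34 and 6.26 in control CLBL-1. In 17-71 it read 5.87, 6.07 and 6.02 in treated cells, against 6.47 and 6.24 in control cells. The groups did not overlap in either line, and the direction was opposite, with treated cells higher in CLBL-1 and lower in 17-71. The log2 difference was 0.32 in CLBL-1 (SE 0.108, adjusted p = 0.298) and -0.37 in 17-71 (SE 0.121, adjusted p = 0.522), and neither passed the test. The response in CLBL-1 minus that in 17-71 was 0.69 (95% interval 0.32 to 1.05, unadjusted p = 0.00237 from limma), with an adjusted p of 0.197.

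LUC7L3, a serine/arginine-rich member of the family, read 8.55 and 8.58 in treated CLBL-1, against 8.19, 8.22 and 8.11 in control CLBL-1. The treated arrays lay clear of the controls, and the log2 difference of 0.40 was the largest of the 8 factors other than PRPF39 (SE 0.0856, 95% interval 0.18 to 0.61, limma adjusted p = 0.163). It passed the threshold when the prior variance followed intensity (adjusted p = 0.0122) and when probe sets below the median level were left out (adjusted p = 0.0373). Those settings also raised the calls over all probe sets from 43 to 1310 and 1001. LUC7L3 did not pass with the joint fit (limma adjusted p = 0.102), the replicate number as a block (0.492), quantile (0.174) or cyclic loess normalisation (0.183). In 17-71 it read 7.30, 7.19 and 7.00 in treated cells, against 7.29 and 7.26 in control cells, and the groups overlapped (-0.11, adjusted p = 0.821). The difference between the responses was 0.51 (95% interval 0.18 to 0.83, adjusted p = 0.254). LUC7L2 read 8.76 and 8.58 in treated CLBL-1, against 8.55, 8.60 and 8.62 in control CLBL-1, and ranged from 7.50 to 7.65 in 17-71. Its groups overlapped in both lines, with log2 differences of 0.085 and -0.034 and adjusted p of 0.754 and 0.943 in CLBL-1 and 17-71.

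TIA1 and TIAL1 bind uridine-rich stretches behind weak donor sites, and human TIA1 draws the U1 particle there through the SNRPC protein. TIA1 read 8.53 and 8.65 in treated CLBL-1, against 8.41, 8.41 and 8.26 in control CLBL-1. Treated 17-71 cells read 7.60, 7.83 and 7.83, against 7.84 and 7.85 in control 17-71. Treated cells were above all controls in CLBL-1 and below all controls in 17-71, although the nearest arrays in 17-71 read 7.83 and 7.84. The log2 differences were 0.23 (adjusted p = 0.382) and -0.096 (adjusted p = 0.832), and they differed from each other by 0.33 (unadjusted p = 0.0466, adjusted p = 0.433). TIAL1 read 8.18 and 8.19 in treated CLBL-1, against 7.99, 8.10 and 7.91 in control CLBL-1, a log2 difference of 0.18 (adjusted p = 0.473). In 17-71 it read 8.28, 8.20 and 8.07 in treated cells, against 8.42 and 8.21 in control cells, and the groups overlapped (-0.13, adjusted p = 0.772). LUC7L and LUC7L2, like TIA1 and TIAL1, are related in sequence, and signal shared between their probes was not tested.

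**Figure D2:**
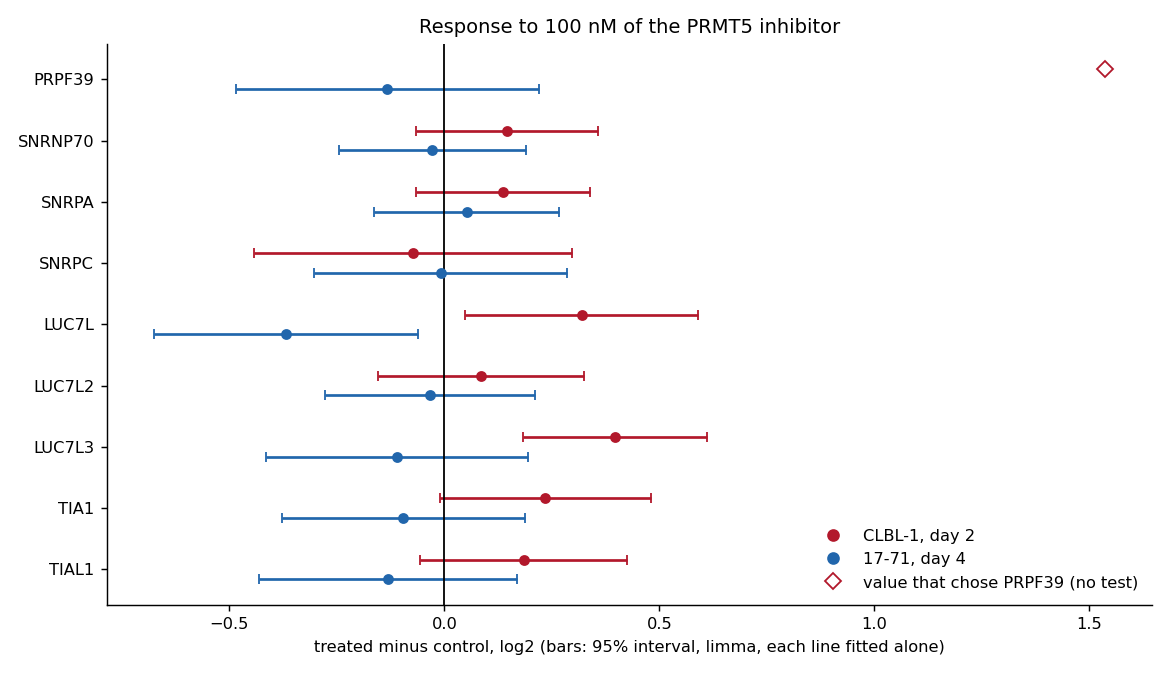
Treated minus control log2 difference (horizontal axis) for each of the 9 genes in CLBL-1 (day 2) and 17-71 (day 4), with 95% intervals from limma fits of each line alone. The open diamond is PRPF39 in CLBL-1 at 1.54, drawn with no interval because that value chose the gene, and the next largest change is 0.40 for LUC7L3 in CLBL-1.

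Of the 8 factors other than PRPF39, 0 passed an adjusted p of 0.05 in CLBL-1 by limma, where 0.133% of all probe sets did, and 2 (LUC7L and LUC7L3) had an unadjusted p below 0.05, where 13.7% did. Their change was positive for 7 and negative for 1, with a median of 0.16, against a median of 0.0057 over all symbols. In 6 of the 8 all treated arrays lay above all controls and in 0 below, against 16.9% and 15.5% of all probe sets. In 17-71, 0 of the 8 passed, as did 0% of all probe sets, and 1 (LUC7L) had an unadjusted p below 0.05, where 9% did. There 1 change was positive and 7 were negative, with a median of -0.065, against -0.00054 over all symbols. In 0 of the 8 all treated arrays lay above the controls and in 2 below, against 14.1% and 13.8% of all probe sets. LUC7L and TIA1 were the 2 factors above in CLBL-1 and below in 17-71, a pattern that 2.22% of all probe sets showed.

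Over both lines, 0 of the 8 passed for the common effect, where 1.59% of all probe sets did, and 0 had an unadjusted p below 0.05 in limma, where 14.5% did. The largest common effects were 0.14 for LUC7L3 (adjusted p = 0.411) and 0.094 for SNRPA (adjusted p = 0.446), and the median was 0.043. For the difference between the responses 0 of the 8 passed, where 0.0309% of all probe sets did, and 3 (LUC7L, LUC7L3 and TIA1) had an unadjusted p below 0.05, where 11.3% did. These fits share arrays with the fits of each line, so they are other views of the same values.

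Set against its own line's control mean, PRPF39 exceeded the other factors on each treated CLBL-1 array. The mean of these array values is the change that chose PRPF39, so this was to be found and is given as a description. On replicate 1 it was 1.67 higher on the log2 scale, while the other 8 ranged from 0.12 for SNRNP70 to 0.38 for LUC7L3. On replicate 2 it was 1.40 higher, while the others ranged from -0.28 for SNRPC to 0.41 for LUC7L3. The median of the other 8 was 0.18 on both arrays. In 17-71 the same measure for PRPF39 was -0.038, -0.035 and -0.33 on treated replicates 1, 2 and 3, inside the range of the other factors on each array. LUC7L was the lowest of those factors on all 3 arrays, at -0.48, -0.28 and -0.34.

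Without inhibitor, the level of most U1 factors differed between the lines. The contrast of control CLBL-1 with control 17-71 called 6 of the 8 factors (5 higher and 1 lower in CLBL-1), where it called 31.5% of all probe sets (16.8% higher and 14.7% lower). This was not particular to U1. Of the lists described below, it called 12 higher and 2 lower of 15 branch point and U2 genes. It called 9 higher and 2 lower of 14 tri-snRNP genes, 4 higher and 0 lower of 7 Sm genes, and 3 higher and 2 lower of 8 U11/U12 genes. SNRPA averaged 8.45 ± 0.028 in control CLBL-1 (SD, n = 3) and 7.37 ± 0.031 in control 17-71 (SD, n = 2), a log2 difference of 1.08 or 2.12-fold (limma adjusted p = 4.19e-06). LUC7L2 was 2.01-fold higher in CLBL-1 (log2 difference 1.01, adjusted p = 2.97e-05), and LUC7L3 was 1.86-fold higher (0.90, adjusted p = 0.000123). The 3 were called under every alternative tried, and all control arrays of CLBL-1 lay above those of 17-71. TIA1 was 1.42-fold higher (0.51, adjusted p = 0.00406), a call that ended with the replicate number as a block (adjusted p = 0.0529).

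SNRNP70 was 1.18-fold higher in control CLBL-1 (0.24, adjusted p = 0.0375), and this call ended in 9 of 10 fits that left out an array, with the replicate block (adjusted p = 0.186) and under quantile (adjusted p = 0.119) and cyclic loess normalisation (0.11, adjusted p = 0.333). TIAL1 was the factor that was lower in CLBL-1, by 1.24-fold (-0.31, adjusted p = 0.0497), and its call ended in 7 of those 10 fits and with the replicate block (adjusted p = 0.173). LUC7L (-0.12, adjusted p = 0.481) and SNRPC (0.010, adjusted p = 0.970) did not pass. B cell markers separated the same control arrays, and collection day differed with line, so neither can be told apart from the line. In treated cells the means of CLBL-1 minus 17-71 were 1.40 for LUC7L3, 1.17 for SNRPA, 1.13 for LUC7L2, 0.84 for TIA1, 0.56 for LUC7L, 0.41 for SNRNP70, 0.00 for TIAL1 and -0.053 for SNRPC.

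**Figure D3:**
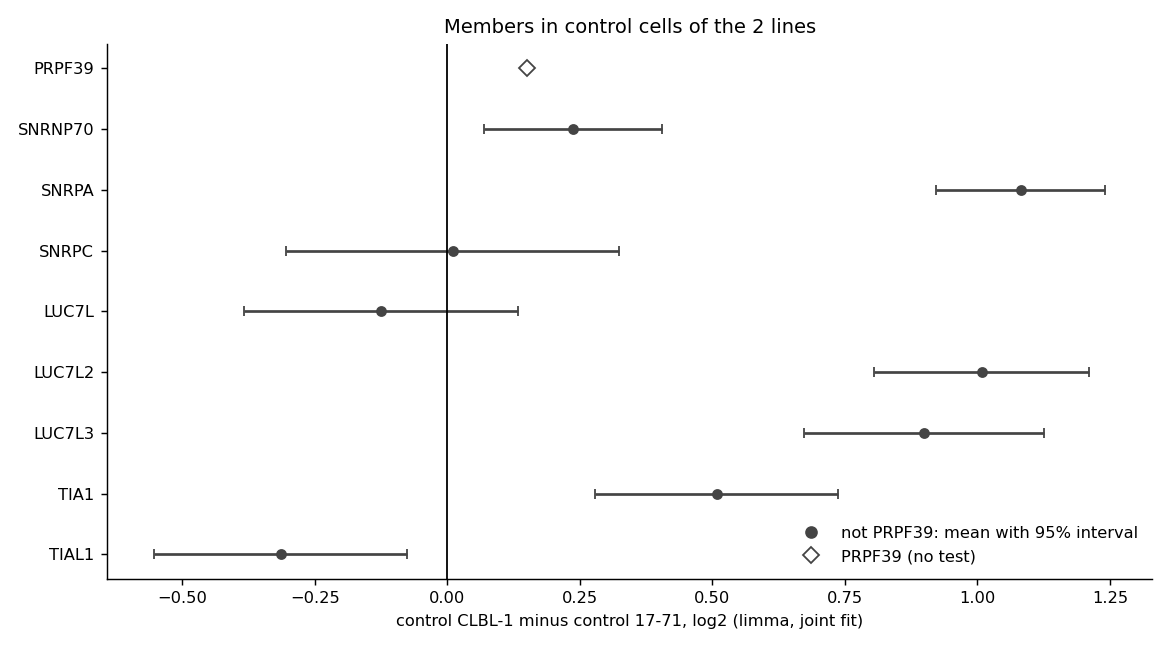
Control CLBL-1 (n = 3) minus control 17-71 (n = 2) log2 difference (horizontal axis) for the 9 genes, with 95% intervals from the limma fit over all 10 arrays. SNRPA, LUC7L2 and LUC7L3 lie between 0.90 and 1.08, TIAL1 lies at -0.31, and PRPF39, given without a test, lies at 0.15.

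The genes whose pattern over the 10 arrays was most like PRPF39 were sought among symbols whose SD was at least 0.5 of its own. The 6 highest Pearson correlations were those of KCNJ14 (0.96), a potassium channel, CCDC59 (0.94), INTU (0.93), a planar polarity protein of cilia, PYROXD1 (0.93), an oxidoreductase, PAXBP1 (0.93), and CFAP53 (0.93), a protein of motile cilia. KCNJ14 read 4.70 and 4.33 in treated CLBL-1, against 3.44, 3.69 and 3.54 in control CLBL-1, and at most 3.55 in 17-71. CFAP53 read 4.76 and 4.73 in treated CLBL-1, against 3.17, 3.47 and 3.34 in control CLBL-1, and at most 3.83 in 17-71. Outside treated CLBL-1, KCNJ14 and CFAP53 lay near or below the array medians of 3.71 to 3.79. These correlations rest on the same contrast of treated CLBL-1 with the rest that chose PRPF39. Among the U1 factors the correlation was 0.79 for SNRNP70 and LUC7L3, 0.76 for LUC7L, 0.75 for TIA1, 0.67 for SNRPA, 0.65 for LUC7L2, 0.084 for TIAL1 and -0.16 for SNRPC.

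**Figure D4:**
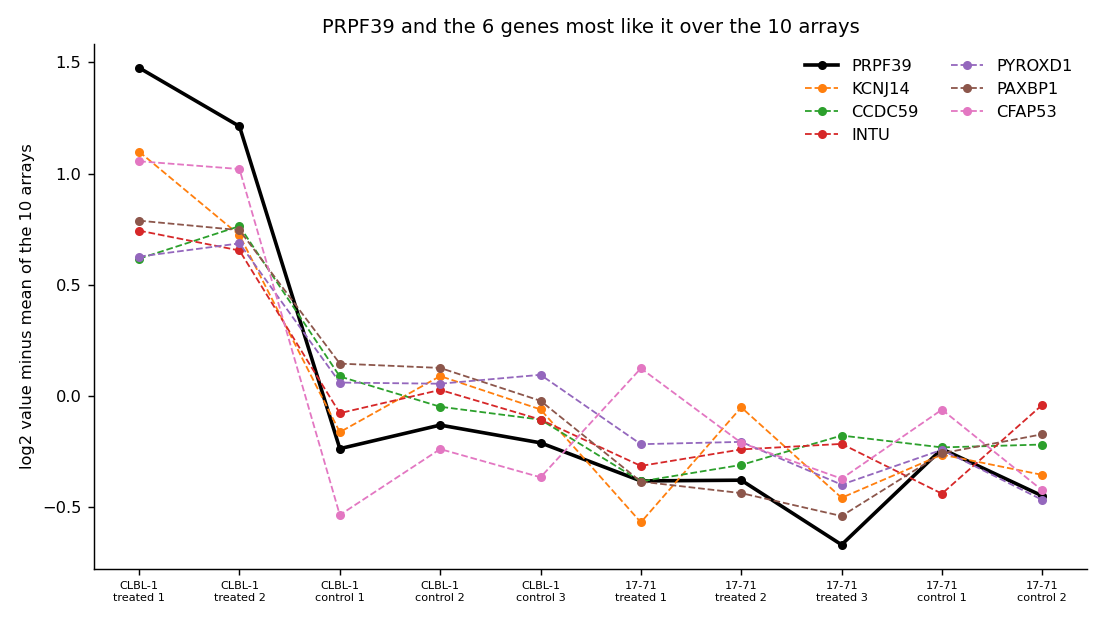
Log2 value minus the mean of the 10 arrays (vertical axis) for PRPF39 and the 6 genes most like it, with arrays along the horizontal axis and a line joining the values of 1 gene. All 7 genes are highest on the 2 treated CLBL-1 arrays, and PRPF39 reaches the highest values there.

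The nearest measured genes beside PRPF39 in the RefSeq order of the dog assembly UU_Cfam_GSD_1.0 were C8H14orf28, KLHL28 and TOGARAM1 on one side and FKBP3, FANCM and MDGA2 on the other. In CLBL-1 their treated minus control differences ranged from -0.24 for MDGA2 to 0.33 for C8H14orf28, with 3 positive and 3 negative. MDGA2 read 1.75 to 2.32 in CLBL-1, below every array median, so its sign there carries little weight. By limma 0 were called in either line. In CLBL-1 1 of the 6 (TOGARAM1) had an unadjusted p below 0.05, near the 13.7% of all probe sets, and in 17-71 0 did. TOGARAM1, the neighbour next to PRPF39, read 6.58 and 6.56 in treated CLBL-1, against 6.26, 6.19 and 6.32 in control CLBL-1. It was also higher in 17-71, at 6.58, 6.61 and 6.65 in treated cells against 6.43 and 6.42 in control cells, so its groups did not overlap in either line. Its common effect of 0.25 did not pass the test (limma adjusted p = 0.0591). RefSeq places a long non-coding RNA and a small nucleolar RNA within the bounds of PRPF39, and whether its probes overlap them was not tested.

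Further proteins linked to the U1 particle were taken from a list of 8, of which PRPF40B, RBM25, TAF15 and NCBP1 were measured by a single-symbol probe set. TAF15, an RNA-binding protein that also joins the basal transcription machinery, fell in the common effect by 0.91 on the log2 scale (limma adjusted p = 0.00116), where 1.59% of all probe sets were called. It read 7.33 and 7.21 in treated CLBL-1 against 8.15, 8.29 and 8.29 in control CLBL-1, and 7.10, 6.96 and 6.97 in treated 17-71 against 7.84 and 7.88 in control 17-71. The groups lay apart in the same direction in both lines, unlike those of PRPF39. TAF15 did not pass by limma in either line alone (adjusted p = 0.0553 in CLBL-1 and 0.389 in 17-71). RBM25, a U1-associated regulator of alternative splicing, read 9.15 and 9.22 in treated CLBL-1, against 8.75, 8.84 and 8.67 in control CLBL-1. Its log2 difference was 0.43 in CLBL-1 (adjusted p = 0.166) and -0.085 in 17-71 (adjusted p = 0.824), and the difference between the lines did not pass (0.52, adjusted p = 0.201).

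Among the Sm proteins, the ring that U1 shares with other particles, 7 of 8 listed were measured. In CLBL-1 6 changes were positive and 1 negative (median 0.20), and in 17-71 the counts were also 6 and 1 (median 0.15). By limma 0 of the 7 passed in either line or for the common effect, and 2 in CLBL-1, 1 in 17-71 and 6 in the common effect had an unadjusted p below 0.05, where 13.7%, 9% and 14.5% of all probe sets did. The 1 in 17-71 was SNRPN, which read 2.95 to 3.70 there, below every array median. SNRPB, whose protein carries PRMT5-dependent methyl marks, read 8.47 and 8.62 in treated CLBL-1 against 8.19, 8.17 and 8.31 in control CLBL-1. In 17-71 it read 7.70, 7.80 and 7.64 in treated cells against 7.49 and 7.53 in control cells, and its common effect was 0.26 (adjusted p = 0.0917).

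The U11 and U12 proteins form the minor spliceosome's counterpart of U1 and U2, and all 8 listed were measured. In CLBL-1 5 were positive and 3 negative (median 0.11), in 17-71 3 were positive and 5 negative (median -0.080). By limma 0 were called in either line, and 2 in CLBL-1 and 3 in 17-71 had an unadjusted p below 0.05, where 13.7% and 9% of all probe sets did. SNRNP35 was higher and SNRNP25 lower in treated cells of both lines, with common effects of 0.31 (adjusted p = 0.0602) and -0.27 (adjusted p = 0.105) that did not pass. SNRNP48, which had the smallest p of the list for the difference between the lines, read 4.91 and 4.91 in treated CLBL-1 against 4.48, 4.79 and 4.75 in control CLBL-1, and 5.36, 5.66 and 5.48 in treated 17-71 against 5.76 and 6.05 in control 17-71. The groups did not overlap in either line, and the difference of its responses was 0.64 (limma adjusted p = 0.280).

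In the particles that act after U1, nearly all changes were positive in both lines. All 14 listed tri-snRNP proteins, which take over the donor site from U1, had a positive change in CLBL-1 (median 0.34) and in 17-71 (median 0.19), where 51.1% and 49.9% of all symbols were positive. By limma 0 of the 14 were called in either line alone. In the common effect, which called 1.59% of all probe sets, 5 of them rose. The smallest p were those of DDX23 (0.55, limma adjusted p = 0.00584) and PRPF8 (0.45, adjusted p = 0.00591). PRPF3, PRPF4 (0.48, adjusted p = 0.0198) and USP39 (0.33, adjusted p = 0.0422) were the others. The change of USP39 was 0.53 in CLBL-1 and 0.13 in 17-71, so its common effect came mostly from CLBL-1. Of 15 measured branch point and U2 proteins, 15 were positive in CLBL-1 (median 0.22) and 13 in 17-71 (median 0.10). By limma 0 of the 15 were called in either line alone. The helicase DDX46 rose in the common effect (0.45, adjusted p = 0.0207), reading 8.89 and 8.89 in treated CLBL-1 against 8.27, 8.39 and 8.29 in control CLBL-1. In 17-71 it read 7.22, 7.28 and 7.27 in treated cells against 7.07 and 6.80 in control cells. The medians of the 8 U1 factors were 0.16 and -0.065 in the same fits, and the difference between the lists was not tested.

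**Figure D5:**
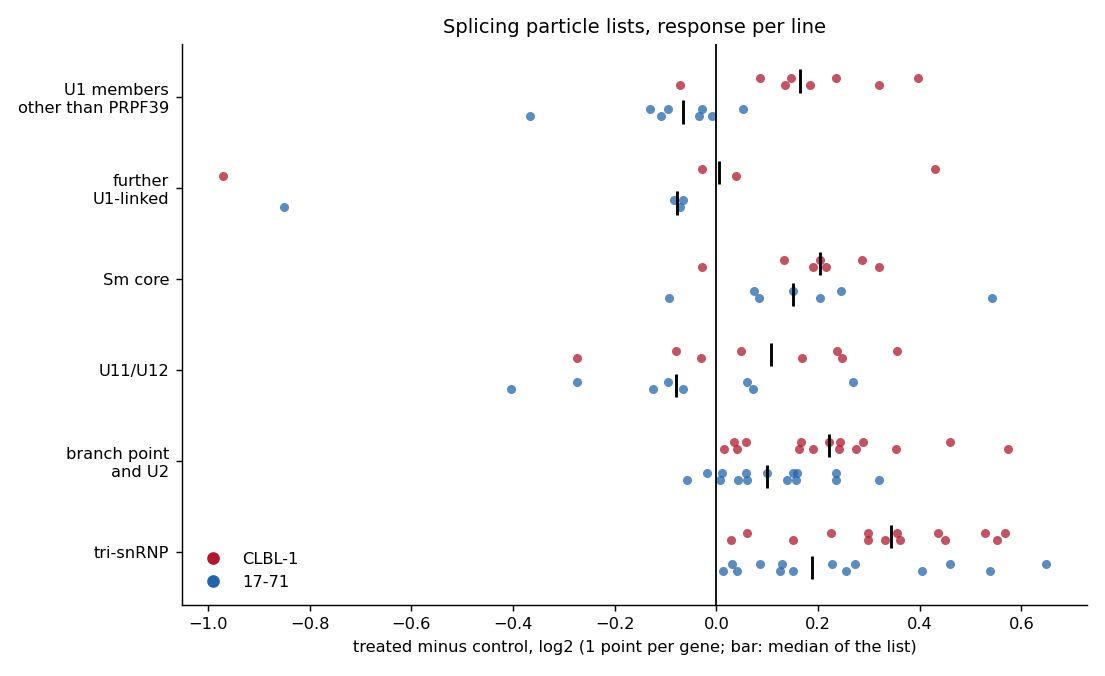
Treated minus control log2 difference (horizontal axis), with 1 point per measured gene in CLBL-1 and in 17-71 and a bar at the median, for the 8 U1 factors other than PRPF39, further U1-linked factors, Sm core, U11/U12 proteins, branch point and U2 proteins and tri-snRNP proteins. The tri-snRNP points are all above 0 in both lines, and the U1 factors have medians of 0.16 in CLBL-1 and -0.065 in 17-71.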

How the data were processed

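The deposited values were log2 expression per probe set of an Affymetrix canine gene array, which the authors made by robust multi-array averaging (RMA). Affymetrix Expression Console and limma are also named, with no version, in the submitters' processing notes. The genome build, any filter and whether the lines were normalised together were not given in the sources used here. RMA fixes each array's distribution, so a change in total RNA per cell would not appear. For arrays the number of arrays limits the precision.

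Groups follow the labels for line and treatment. Probe sets were named from the platform annotation where it gave 1 symbol (16545 of 32391, with 370 holding several and 15476 unnamed here). Of the 9 genes, 7 matched RefSeq by gene ID and SNRNP70 and SNRPC by symbol. The limma package 3.58.1 (R 4.3.3) gave two-sided moderated tests (lmFit, eBayes) across all probe sets with Benjamini-Hochberg adjustment and a threshold of 0.05. Each line was fitted alone (residual df 3). One model of the 4 groups over all arrays (residual df 6) gave the common effect, the difference of responses and the control contrast. The fit was tested on simulated data.

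Members and lists were chosen with earlier results of these data known. Named genes are the 9 members, the 6 symbols most correlated with PRPF39, the 3 nearest measured genes on each side and up to 2 genes of smallest p per list and comparison. Marker genes named come from the marker lists and were chosen after their values were seen. Alternatives were a joint fit, the replicate number as a block, a variance trend with robust variances, quantile and cyclic loess normalisation, a filter on level, the unadjusted threshold and leaving out each array. No sequences are given.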

Additional observations from a re-analysis of the deposited data

Results flagged for a closer look

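LUC7L differed in direction between the lines: every treated CLBL-1 array lay above every CLBL-1 control, and every treated 17-71 array lay below every 17-71 control. The CLBL-1 response minus the 17-71 response was 0.69 on the log2 scale, and by limma it did not pass the threshold over all probe sets (adjusted p = 0.197, and 0.0602 to 0.567 over the alternatives that kept all arrays). TIA1 showed the same arrangement of arrays, with a difference of 0.33 between the responses (adjusted p = 0.433, and 0.216 to 0.631 over the same alternatives). This arrangement was found for 2.22% of all probe sets. In both genes line and collection day cannot be told apart. Groups of 2 or 3 arrays were too small for a test of single outlying arrays.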

How the results depend on the processing

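The change of PRPF39 in CLBL-1 lay between 1.40 and 1.67 when 1 array was left out and between 1.51 and 1.54 under the other settings, and in 17-71 it lay between -0.24 and -0.027 and between -0.13 and -0.037. Of those other settings, the joint fit, the variance trend and the filter on level cannot change a log2 difference. Where leaving out an array left 1 sample in a group, that sample was assumed to vary like the other groups. Of 603 values of the members under alternatives, 560 were counted as unchanged. Where a test was given, unchanged meant the same direction and the same side of the threshold. For PRPF39 values without a test it meant a shift smaller than its pooled SD of 0.141. The count includes the settings that cannot change a log2 difference.

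The replicate numbers did not pair samples: deviations of same-numbered treated and control arrays correlated between -0.026 and 0.0079. With the replicate block the count of probe sets called was 0 in CLBL-1, 0 for the common effect and 0 for the difference of responses, and 3 of the 8 other factors were called between control lines. The common effect calls of TAF15, DDX46 and the tri-snRNP genes therefore ended with the block. The block leaves fewer residual df than the main fits, and arrays without a same-numbered partner no longer add to the treatment contrast. The loss of calls was therefore not particular to these genes. The block turned SNRPC to 0.031 in the difference of responses and to -0.040 between control lines, where cyclic loess gave -0.038. For its response in CLBL-1 the block gave -0.028, as did leaving out control replicate 3, which has no treated partner. In 17-71 it gave -0.059, as did leaving out treated replicate 3, which has no control partner. The cause of the change between control lines was not tested.

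Counts of all probe sets called moved most. In CLBL-1 they were 607 in the joint fit, 1310 with the variance trend, 1001 with the filter on level, which tests fewer probe sets, 4444 at the unadjusted threshold and 0 to 0 without 1 array, against 43. In 17-71 they were 15, 35 and 2916 with the joint fit, trend and unadjusted threshold, against 0. For the common effect they were 1404, 1484 and 4689 with trend, filter and unadjusted threshold and 155 to 305 without 1 array, against 515. For the difference of responses they were 288, 268, 3654 and 0 to 2, against 10. Of the 8 other factors, 1 was called in CLBL-1 with the trend and 1 with the filter (LUC7L3 both times), and at the unadjusted threshold 2 in CLBL-1, 1 in 17-71 and 3 for the difference. Between control lines 4 to 5 were called without 1 array.

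Without 1 array, changes near 0 crossed it. In CLBL-1 SNRPC ranged from -0.28 to 0.13 and LUC7L2 from -0.0054 to 0.18. In 17-71 SNRNP70 ranged from -0.061 to 0.0053, SNRPC from -0.059 to 0.074 and LUC7L2 from -0.10 to 0.035. For the common effect SNRPC ranged from -0.14 to 0.062, LUC7L from -0.083 to 0.035, LUC7L2 from -0.020 to 0.071 and TIAL1 from -0.026 to 0.079. For SNRPC the difference of responses ranged from -0.27 to 0.14 and the control contrast from -0.034 to 0.063.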
